A study of Mus musculus with 2 samples.

Results

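The proteasome is the protease that degrades ubiquitin-tagged proteins. Its 20S core is a stack of rings of alpha and beta subunits, of which 3 beta subunits cut peptide bonds, and its 19S regulator holds the ATPases that unfold substrates and the subunits that bind and remove ubiquitin. In cells exposed to interferon, and constitutively in many immune cells, the catalytic subunits Psmb5, Psmb6 and Psmb7 are exchanged for Psmb8, Psmb9 and Psmb10, which gives the immunoproteasome, known for producing peptides for MHC class I. Macrophages are antigen-presenting cells in which both forms are found. All genes whose symbol begins with Psm, one of the letters a to g and a digit were taken as members, which gave 50 of the 22322 genes measured. The rule uses symbols alone and no measured value.

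The mRNA of F4/80-selected liver macrophages was measured in 1 library of WT mice and 1 of FABP7 KO mice, with the strain background labelled C57BL/6 for both. The methods of the study give C57BL/6 J for the knockouts, and male mice of 6 to 8 weeks. Both groups carried MC38 metastases, since 500000 cells of this mouse colon carcinoma line had been injected into the spleen in 100 µl, and the macrophages were taken on day 10. The study describes the knockout as systemic, so other cells of the KO liver lack FABP7 too, and 1 label field calls the KO sample a knockdown. How many mice each library pools was not given in the sources used here. Since each genotype has 1 library, the differences below have no replicate check and carry no p-value. The authors deposited FPKM, fragment counts scaled to gene length and library total, so levels can be compared between genes. From the steps between low values the depth was estimated at about 18000000 fragments in each library. The errors given below are the counting errors (SE) at this depth. They leave out differences between mice and preparations. Each ratio is the log2 of KO over WT, with 1 FPKM added to both values.

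Fabp7 (ENSMUSG00000019874) was at 354 FPKM in WT and at 0.69 in KO. Adgre1, which encodes the F4/80 used for selection, was at 864 and 925 FPKM, and the lowest of 14 macrophage markers, Mertk, at 183 and 187 FPKM. Of the 14, 5 were at a ratio of 0.3 or more and 1 at -0.3 or lower, the scavenger receptor Marco at 1377 and 714 FPKM. Of all genes tested, 20.4% were at 0.3 or more and 20.4% at -0.3 or lower. Markers of other cells summed to more in the KO than in the WT library. This held for hepatocytes (671 and 1337 FPKM, 17 of 18 markers at a log2 ratio of 0.3 or more), sinusoidal endothelium (161 and 300 FPKM, 9 of 10), stellate cells and fibroblasts (22.1 and 64.1 FPKM), neutrophils (11.5 and 56.3 FPKM), B and plasma cells (17.3 and 45.3 FPKM), T cells (19.2 and 41.8 FPKM) and erythroid cells (25.9 and 64.9 FPKM). In these last lists the markers that reached 1 FPKM in a library, some of them only in KO, were all at 0.3 or more, which was 5 of the 8 listed for stellate cells, for B cells and for T cells, 5 of 10 for neutrophils and 4 of 6 for erythroid cells. None of these markers was at 0 in both libraries, and the neutrophil gene Elane was at 0 in WT and 0.06 FPKM in KO. The 24 proliferation genes summed to 939 in WT and 238 FPKM in KO, each with a ratio of -1.03 or lower. Of all genes tested, 2.95% were at -1 or lower. The part of these cells and of dividing cells in the proteasome values was not tested. In bulk RNA, fewer cells of a type and less RNA per cell cannot be told apart.

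Most proteasome genes had moderately lower mRNA in macrophages of FABP7 KO livers than in those of WT livers. The 50 members together made up 0.734% of all summed FPKM in WT and 0.562% in KO, or 3396 and 2518 FPKM. Of these, 49 reached 1 FPKM in at least 1 library, and 43 of them had a ratio below 0, where 49.5% of the 10770 genes tested did. A ratio of 0.3 in either direction served as a size rule, which is not a test. A ratio of -0.3 or lower was found for 34 of the 49, against 20.4% of all genes, and none reached 0.3, against 20.4% of all genes. None reached a ratio of -1 or 1, which 2.95% and 2.21% of all genes passed. The median was -0.41 over the 49 members and 0.004 over all genes. Proteasome genes are abundant, and 39 members had a mean of 20 FPKM or more, a floor chosen after the values were seen. At that level 29 of the 39 members were at -0.3 or lower against 23% of 3466 genes, 36 were below 0 against 57.6%, none reached 0.3 against 12.8%, none reached -1 or 1 against 1.33% and 1.07%, and the medians were -0.41 and -0.06.

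**Figure D1:**
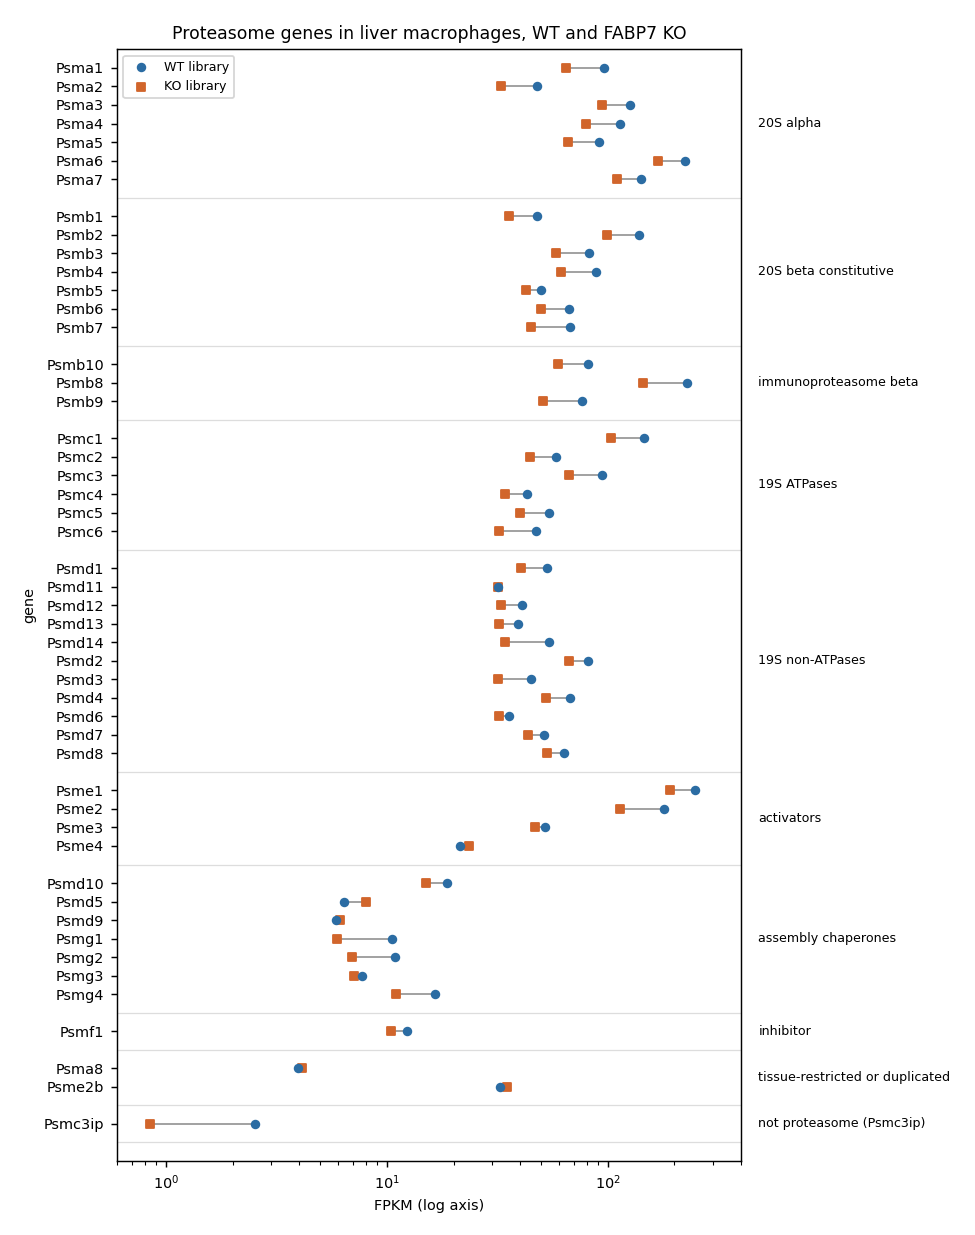
FPKM on a log axis (x) for the 49 members at 1 FPKM or more in a library (rows, by group), in the WT library (blue circles) and the KO library (orange squares). The KO value lies left of the WT value for 43 of the 49 genes, and the assembly chaperones lie below 20 FPKM in both libraries.

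The 50 symbols include 4 that are not ordinary parts of the macrophage proteasome. Psmc3ip encodes a partner of the meiotic recombination machinery and is no proteasome subunit. It was at 2.53 in WT and 0.85 FPKM in KO, a ratio of -0.93 ± 0.17, and passed the floor of 1 FPKM only through the WT library. Psmb11, the thymus-specific catalytic subunit, was at 0.05 and 0 FPKM and is the single member under the floor. Psma8, the alpha subunit of germ cells, was at 3.97 and 4.14 FPKM. Psme2b, a copy of the activator gene Psme2, was at 32.5 and 35.0 FPKM. Psma8 and Psme2b can share reads with Psma7 and Psme2, and the sources used here do not say how such reads were counted. The other 46 members reached 5 FPKM or more in both libraries, so the floor removed none of them. Of these 46, 33 had a ratio of -0.3 or lower and their median was -0.41.

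The 17 genes of the 20S core were all below 0, and apart from Psmb5 all at -0.3 or lower. All 7 alpha genes, which form the outer rings and the gate of the core, were at -0.3 or lower, with a median of -0.46 and a range of -0.56 to -0.36. Psma1 had the lowest ratio of these, at 95.5 in WT and 64.4 FPKM in KO (-0.56 ± 0.03), and Psma7 the highest, at 141 and 110 FPKM (-0.36 ± 0.02). Psma6 was the most abundant alpha gene in both libraries (223 and 168 FPKM, -0.41 ± 0.03), and Psma2 the least abundant (47.9 and 32.9 FPKM, -0.53 ± 0.04). FPKM levels within this ring of equal protein copies thus spanned a wide range, while the ratios did not. Such a range of levels depends on the gene lengths used. Psma4 was at 113 and 79.8 FPKM, Psma5 at 90.9 and 65.7 FPKM, and Psma3 at 126 and 93.9 FPKM.

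Of the 7 constitutive beta genes, 6 were at -0.3 or lower and the median was -0.47. The structural subunits Psmb1, Psmb2, Psmb3 and Psmb4, which carry no active site, had ratios of -0.51 to -0.41, with the most abundant, Psmb2, at 138 in WT and 99.4 FPKM in KO (-0.47 ± 0.04). Psmb4 was at 87.9 and 61.6 FPKM, Psmb3 at 82.4 and 58.3 FPKM, and Psmb1 at 47.7 and 35.8 FPKM. The catalytic subunits differed more among themselves. Psmb7, with trypsin-like activity, had the lowest ratio of the constitutive beta genes at 67.3 and 44.6 FPKM (-0.58 ± 0.03). Psmb6, with caspase-like activity, was at 66.5 and 49.8 FPKM (-0.41 ± 0.05). Psmb5, with chymotrypsin-like activity and the target of proteasome inhibitor drugs, was at 49.6 and 42.6 FPKM, and its ratio of -0.21 ± 0.07 was the highest of the 17 core genes and the only one short of -0.3.

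The 3 immunoproteasome genes were all at -0.3 or lower, with a median of -0.58. Psmb8 (ENSMUSG00000024338), the interferon-inducible counterpart of Psmb5, was the most abundant beta gene at 229 in WT and 145 FPKM in KO, and its ratio of -0.66 ± 0.02 was the lowest of the 17 core genes. Psmb9 (ENSMUSG00000096727), which replaces Psmb6, was at 76.5 and 51.0 FPKM (-0.58 ± 0.03), and Psmb10 (ENSMUSG00000031897), which replaces Psmb7, at 80.8 and 59.3 FPKM (-0.44 ± 0.04). Each immunoproteasome gene was more abundant than its constitutive counterpart in both libraries, though for Psmb9 and Psmb6 in KO the log2 difference of 0.03 was within the counting error. Psmb8 stood at 4.61 times the FPKM of Psmb5 in WT and 3.40 times in KO, a KO minus WT difference of -0.44 ± 0.08 in the log2 ratio of the pair. Psmb9 over Psmb6 was 1.15 in WT and 1.02 in KO, a difference of -0.16 ± 0.06. Psmb10 over Psmb7 was 1.20 in WT and 1.33 in KO, a difference of 0.14 ± 0.06 in the other direction. The mean difference of the 3 pairs was -0.16 ± 0.04, and without the pair of Psmb8 and Psmb5 it was -0.012, since the other pairs differed in opposite directions. Without the pair of Psmb10 and Psmb7 it was -0.30. As a share of the summed FPKM of the 6 catalytic genes, the immunoproteasome genes made up 67.8% in WT and 65.0% in KO macrophages.

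**Figure D2:**
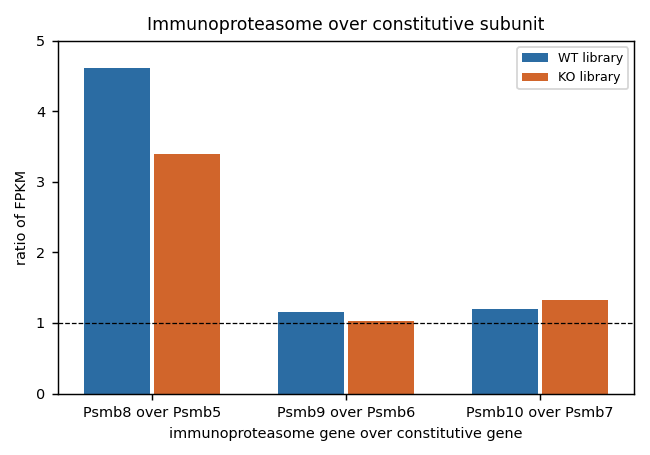
FPKM of each immunoproteasome gene divided by that of the constitutive gene it replaces (y), for 3 pairs (x), in the WT library (blue bars) and the KO library (orange bars), with a dashed line at equal levels. Psmb8 over Psmb5 is 4.61 in WT and 3.40 in KO, while the other pairs lie between 1.02 and 1.33.

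The 17 genes of the 19S regulator under the symbol rule had a median ratio of -0.35, and the ATPases and other subunits differed in spread. The 19S subunit genes Adrm1 and Sem1 fall outside the rule and are given below. All 6 ATPase genes, Psmc1 to Psmc6, whose products form the ring that unfolds substrates, were at -0.3 or lower (median -0.46). Psmc1 was the most abundant at 145 in WT and 103 FPKM in KO (-0.49 ± 0.03), Psmc6 had the lowest ratio at 47.2 and 32.2 FPKM (-0.54 ± 0.04), and Psmc4 the highest at 43.0 and 34.4 FPKM (-0.31 ± 0.05). Of the 11 non-ATPase genes, 5 were at -0.3 or lower and the median was -0.28. Psmd14, the deubiquitinase that removes ubiquitin chains at the entry to the core, had the lowest ratio at 53.9 and 34.4 FPKM (-0.63 ± 0.04), followed by the lid subunit Psmd3 at 44.7 and 31.7 FPKM (-0.48 ± 0.03) and the base scaffold Psmd1 at 53.0 and 40.2 FPKM (-0.39 ± 0.03). The ubiquitin receptor Psmd4 was at 67.5 and 52.7 FPKM (-0.35 ± 0.04), and the lid subunit Psmd12 at 40.8 and 32.8 FPKM (-0.30 ± 0.05). Just short of the size rule were the base scaffold Psmd2, the most abundant of the 11 at 81.6 and 66.9 FPKM (-0.28 ± 0.03), and Psmd13 at 39.3 and 32.2 FPKM (-0.28 ± 0.04). Psmd8 was at 63.3 and 52.7 FPKM, Psmd7 at 51.2 and 43.3 FPKM, and Psmd6 at 35.5 and 32.2 FPKM (-0.14 ± 0.05). Psmd11, a lid subunit that contacts the core, was at 31.8 and 31.9 FPKM, a ratio of 0.002 ± 0.03.

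The activators, which open the core without ubiquitin or ATP, did not share 1 ratio. Psme1 and Psme2 encode the interferon-inducible PA28 alpha and beta subunits that form 1 ring together. Psme1 was the most abundant member of all, at 248 in WT and 191 FPKM in KO (-0.38 ± 0.02). Psme2 was at 179 and 113 FPKM, and its ratio of -0.66 ± 0.03 differed from that of Psmb8 by less than the counting error. Summed with its copy Psme2b, it was at 212 and 148 FPKM, a ratio of -0.51. Psme3, the nuclear PA28 gamma, was at 51.8 and 46.8 FPKM (-0.15 ± 0.04). Psme4, the large activator PA200 known from DNA repair and spermatogenesis, was at 21.3 and 23.5 FPKM (0.14 ± 0.03). The 5 interferon-inducible genes Psmb8, Psmb9, Psmb10, Psme1 and Psme2 were thus all at -0.3 or lower, as were most other subunit genes, while Psme3 and Psme4 were not.

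The 7 assembly chaperones among the members and the inhibitor were expressed below the core, regulator and activator genes, from 5.86 to 18.8 FPKM in WT. Pomp, a more abundant chaperone outside the symbol rule, is given below. Psmg1 and Psmg2, which form a pair that builds the alpha ring, were at 10.5 and 5.95 FPKM (-0.73 ± 0.13) and at 10.9 and 6.93 FPKM (-0.58 ± 0.11). Psmg4 was at 16.4 and 11.04 FPKM (-0.53 ± 0.16), while its partner Psmg3 was at 7.67 and 7.09 FPKM (-0.10 ± 0.09). Among the chaperones of the 19S base, Psmd10 (gankyrin) was at 18.8 and 15.1 FPKM (-0.30 ± 0.09), Psmd9 at 5.86 and 6.14 FPKM (0.06 ± 0.06) and Psmd5 at 6.39 and 8.05 FPKM. The ratio of Psmd5, 0.29 ± 0.06, was the highest of the 49. Psmf1, the inhibitor PI31, was at 12.3 and 10.4 FPKM (-0.22 ± 0.05). For these low genes 1 library rests on 110 to 1426 fragments, and the counting errors ran from 0.05 to 0.16, against 0.02 to 0.07 for the core, regulator and activator genes.

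**Figure D3:**
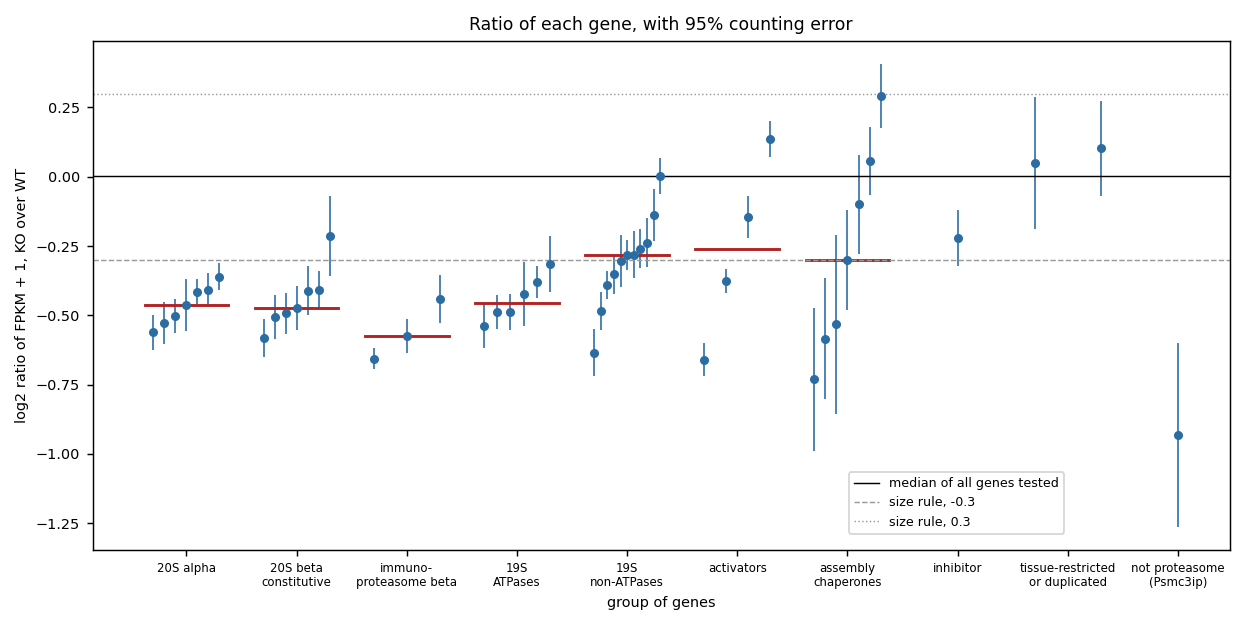
Log2 ratio of FPKM + 1, KO over WT (y), for the 49 members (points) in 10 groups (x), with 95% counting error (bars), the median of groups of 3 or more (red), the median of all genes tested (black line) and the size rule at -0.3 and 0.3 (broken lines). The 7 alpha genes lie between -0.56 and -0.36, the non-ATPase genes spread from -0.63 to 0.002, and Psmd5 is highest at 0.29.

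Since the members had similar ratios, their promoters were searched for 5 short motifs, in RefSeq sequence of GRCm38.p6 for the 250 bases before each start. A window was held for 41 of the 49 members and for 8570 of the genes tested, and a gene counted when either strand of any of its windows matched. The letters CGGAAG, the core of sites bound by ETS factors, were found in 19 of 41 members (46.3%) and in 30.8% of the genes tested. The antioxidant response element TGACNNNGC, through which NRF1 and NRF2 are known to act on proteasome genes, was found in 5 members (12.2%) and in 14.0% of genes. These 5 were Psmb5, Psmb6, Psmc6, Psmd12 and Psmd9. CCAAT, the NF-Y box, was in 34.1% of members and 40.8% of genes. The interferon-stimulated response element was in 3 members (7.32%), Psmb3, Psmd4 and Psmd9, and in 3.56% of genes. The GAS element TTCNNNGAA was in 2 members (4.88%), Psmb8 and Psmg1, and in 7.30% of genes. Members with and without the ETS letters had median ratios of -0.38 and -0.41, and those with and without the antioxidant response element -0.30 and -0.40. For the NF-Y box these medians were -0.45 and -0.31, for the interferon-stimulated response element -0.35 and -0.40, and for the GAS element, with 2 members, -0.69 and -0.38. A match is a description of the sequence and not evidence of binding. The promoters shown first are those of Psmb5 and Psmb6, which hold the antioxidant response element 47 and 9 bases before the start. The others are those of Psmd14, which had the lowest ratio of the 19S genes among the members, and of Psmb10, whose window holds none of the 5 motifs. Capitals mark the matches, which in Psmd14 are an NF-Y box and an ETS site, both on the reverse strand, 159 and 114 bases before the start. Bases inside annotated exons were left out at the 3′ end of Psmb5 and Psmb10.
Psmb5, chr14:54618023-54618245, minus strand: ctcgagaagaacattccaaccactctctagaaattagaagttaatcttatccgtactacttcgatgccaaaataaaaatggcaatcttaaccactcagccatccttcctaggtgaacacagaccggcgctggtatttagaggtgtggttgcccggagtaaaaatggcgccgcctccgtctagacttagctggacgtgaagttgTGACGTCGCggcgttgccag
Psmb6, chr11:70525107-70525356, plus strand: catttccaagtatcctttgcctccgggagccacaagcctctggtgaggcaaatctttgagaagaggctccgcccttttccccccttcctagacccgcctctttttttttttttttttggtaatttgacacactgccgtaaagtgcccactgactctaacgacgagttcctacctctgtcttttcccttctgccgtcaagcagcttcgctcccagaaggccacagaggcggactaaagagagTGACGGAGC
Psmd14, chr2:61711444-61711693, plus strand: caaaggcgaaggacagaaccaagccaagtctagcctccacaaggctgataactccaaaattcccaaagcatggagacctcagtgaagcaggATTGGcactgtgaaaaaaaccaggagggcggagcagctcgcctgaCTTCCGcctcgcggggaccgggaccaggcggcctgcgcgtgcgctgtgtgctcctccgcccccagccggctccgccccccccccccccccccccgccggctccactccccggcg
Psmb10, chr8:105938445-105938642, minus strand: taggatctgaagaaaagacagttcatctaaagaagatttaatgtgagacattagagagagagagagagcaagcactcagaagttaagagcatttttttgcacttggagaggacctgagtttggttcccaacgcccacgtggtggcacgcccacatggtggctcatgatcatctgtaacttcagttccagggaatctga

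Among all genes, the subunit genes lay at high expression and mostly below 0. The 38 core, regulator and activator genes had means from 22.4 to 219 FPKM, and 36 of them had a ratio below 0. The 10 members with a mean under 20 FPKM had a median of -0.26. Their range of -0.93 to 0.29 was wider than that of the 39 above it, -0.66 to 0.14. The low end of -0.93 was Psmc3ip, which is no proteasome gene, and the next lowest was Psmg1 at -0.73.

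**Figure D4:**
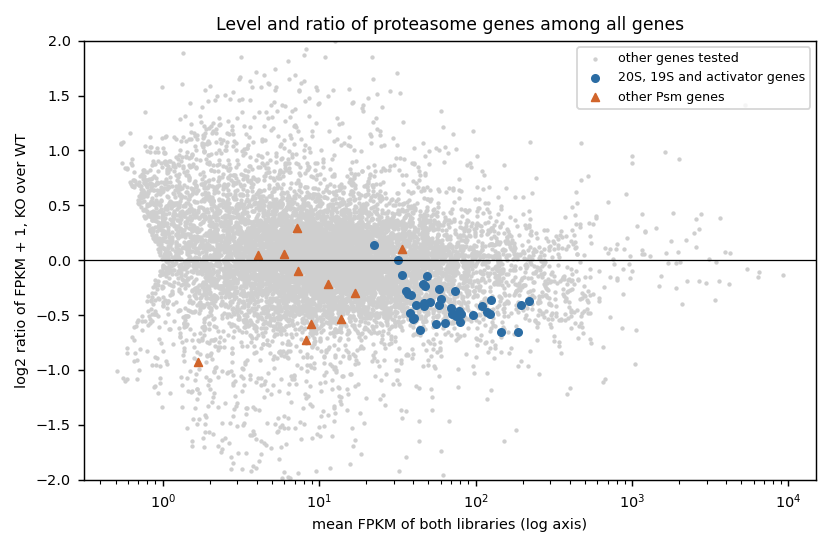
Log2 ratio of FPKM + 1, KO over WT (y), against the mean FPKM of both libraries on a log axis (x), for all genes tested (grey), the 38 core, regulator and activator genes (blue) and the other Psm genes (orange). The 77 genes with a ratio beyond 2 in either direction lie off the axis, and 36 of the 38 blue points lie below 0.

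Genes of proteasome subunits and partners that fall outside the symbol rule had a median ratio closer to 0. Of 10 symbols listed, Paaf1 and Psmd15 were not found under these names, which does not show that a gene is missing. Of the 8 genes found, 2 (25%) were at -0.3 or lower, against 20.4% of all genes, and the median was -0.20. Both are deubiquitinases of the 19S regulator, Usp14 at 31.7 in WT and 19.9 FPKM in KO (-0.64) and Uchl5 at 22.04 and 15.9 FPKM (-0.45). Pomp, the chaperone that matures the beta rings, was the most abundant at 115 and 94.9 FPKM (-0.27). The ubiquitin receptor Adrm1 was at 30.4 and 28.8 FPKM (-0.07), and the lid subunit Sem1 at 34.7 and 30.1 FPKM (-0.20). Akirin2, which carries proteasomes into the nucleus, was at 17.4 and 18.95 FPKM (0.11). The ubiquitin and E1 genes had a median of -0.18, with 2 of 6 (33.3%) at -0.3 or lower, against the same 20.4%. Rps27a, which encodes ubiquitin fused to a ribosomal protein, had the lowest ratio at 365 and 251 FPKM (-0.53), whereas the polyubiquitin gene Ubb, at 1036 and 965 FPKM (-0.10), was nearer 0. Among 12 genes of p97 and the shuttle factors that deliver substrates, 1 was at -0.3 or lower (Faf1, 9.49 and 6.26 FPKM, -0.53) and 1 at 0.3 or higher (Ubqln2, 4.94 and 6.62 FPKM, 0.36). This was 8.33% in each direction, against 20.4% of all genes in each. The median was -0.12, and Vcp, the p97 gene, was at 155 and 136 FPKM.

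NRF1 and NRF2 are transcription factors known to raise proteasome genes under proteotoxic or oxidative stress. The list of their axis also holds partners and regulators, among them an inhibitor. Of its 8 genes 6 had ratios above 0, where 5418 of the 10770 genes tested did. None of 8 was at -0.3 or lower and 4 (50%) were at 0.3 or higher, against 20.4% of all genes in each direction. The median of the list was 0.25. Of the 4, Maff was at 0.74 in WT and 1.16 FPKM in KO and passed the floor only through KO. Nfe2l2, the NRF2 gene, was at 58.5 in WT and 134 FPKM in KO (1.18 ± 0.03), and its partner Mafg at 13.4 and 24.2 FPKM (0.81). Nfe2l1, the NRF1 gene, was at 30.4 and 40.2 FPKM (0.39), while Ddi2, the protease that activates NRF1, was at 29.7 and 26.5 FPKM (-0.16) and Keap1, the inhibitor of NRF2, at 18.1 and 17.6 FPKM (-0.04).

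The class I loading genes, which use the peptides that proteasomes make, were all below 0, against 49.5% of all genes. Of the 11, 4 (36.4%) were at -0.3 or lower, against 20.4% of all genes, and the median was -0.25. Tap1, whose promoter region is shared with Psmb9 in the MHC, had the lowest ratio at 127 in WT and 76.9 FPKM in KO (-0.71), followed by Pdia3 at 445 and 304 FPKM (-0.55). Tap2, which lies next to Psmb8, was at 32.0 and 25.2 FPKM (-0.33), and B2m, the class I light chain, was the most abundant at 3855 and 3389 FPKM (-0.19). H2-D1 was at 1713 and 1684 FPKM (-0.02). In interferon gamma signalling the median was 0.06. Of its 8 genes 2 (25%) were at -0.3 or lower and 1 (12.5%) at 0.3 or higher, against 20.4% of all genes in each direction. The lowest ratio was that of Nlrc5, the transactivator of class I and immunoproteasome genes, at 44.4 and 33.6 FPKM (-0.39). Ifngr1, a chain of the receptor, was at 194 and 243 FPKM (0.32), and Irf1, which binds the Psmb9 promoter region, at 105 and 113 FPKM (0.10).

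For comparison with other large complexes, the COP9 signalosome, a relative of the 19S lid, had 5 of 10 genes at -0.3 or lower. Of all genes 20.4% were, and the median of the COP9 signalosome was -0.29. The 8 lid genes among the members, without Sem1, had a median of -0.27, a list made after the values were seen. The lowest ratio of the COP9 signalosome was that of Cops5, the catalytic subunit, at 30.4 and 22.9 FPKM (-0.39). All 8 CCT chaperonin genes, whose products fold actin and tubulin, were at -0.3 or lower with a median of -0.49, so ratios of this size were not particular to the 20S core. Cct6a had the lowest ratio at 65.2 and 43.3 FPKM (-0.58), and Cct2 was the most abundant at 129 and 93.2 FPKM (-0.47). The cathepsins, the proteases of the lysosome, had 4 of the 10 tested below 0, against 49.5% of all genes. None was at -0.3 or lower and 3 (30%) were at 0.3 or higher, against 20.4% of all genes in each direction. Their median was 0.15, while their summed FPKM was 11026 in WT and 10782 in KO. Ctsf was at 21.0 and 39.1 FPKM (0.86), Ctsl at 162 and 242 FPKM (0.58), and Ctss, the most abundant, at 3205 and 2770 FPKM (-0.21). None of these differences between lists could be tested with 1 library per genotype.

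**Figure D5:**
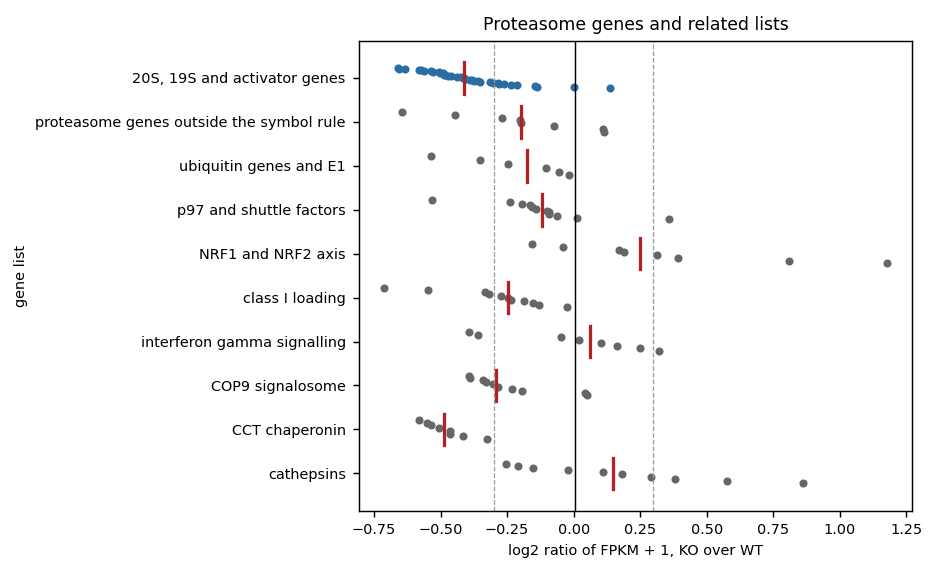
Log2 ratio of FPKM + 1, KO over WT (x), for each measured gene (points) of the 38 core, regulator and activator genes and of 9 related lists (rows), with list medians in red, the median of all genes tested (black line) and the size rule at -0.3 and 0.3 (broken lines). The CCT chaperonin lies furthest left with a median of -0.49, and the NRF1 and NRF2 axis furthest right with 0.25.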

How the data were processed

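The authors deposited FPKM values with 2 decimals for 22322 Ensembl genes in 1 WT and 1 KO library. Bowtie2 2.2.8 and TopHat2 2.1.1 stand in the submitters' processing notes with no role. Build, annotation and counter: not given in the sources used here. Columns were assigned to genotypes by the sample titles. Symbols were taken from GENCODE M21 for 22267 genes, and a symbol on several rows was read from its row of highest mean.

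Log2 ratios of KO over WT used a pseudocount of 1 FPKM, over the 10770 genes that reached 1 FPKM in either library. The members, the lists, the size rule and the alternatives were chosen with earlier results of these data known. Genes were named by a rule: all members, and in other lists the highest mean and up to 2 highest and 2 lowest ratios. Adgre1, Mertk, Elane, Adrm1, Ubb, Nfe2l1, Tap2, Irf1 and Nedd8 were named outside it, after their values were seen, some genes the rule names are not reported here, and the motifs, the lid list and the floor of 20 FPKM were also chosen then. Depth was taken as the number of fragments at which FPKM values up to 1, multiplied by GENCODE exon length, were whole for genes of 250 to 600 bases. In the WT and KO libraries, 83.9% of 112 and 90.5% of 116 values lay within 0.15 of a whole number. At a depth fixed beforehand chance gives 30%. Since the depth was chosen to make these same values whole, chance gives more than that here, and how much more was not computed. Counting errors follow from this depth and assume that these lengths are close to the authors'. The steps were tested on simulated data. Promoters are RefSeq sequence, and no coordinates of the authors' build are given. Alternatives were another pseudocount, floor, scaling, size rule and membership. Python 3.11.15, NumPy 2.4.6 and pandas 2.3.3 were used, and Matplotlib 3.10.9 for plots.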

Additional observations from a re-analysis of the deposited data

How the results depend on the processing

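No member with a ratio of 0.3 or more in size changed direction under any alternative run. Of 243 values of single members under other settings, 5 moved by more than their 95% counting error. The 243 include values under no floor and under a floor of 5 FPKM, which cannot change the ratio of a single gene. All 5 arose under the other pseudocount or a scaling. Scaling KO to a median ratio of 1 over genes of 10 FPKM or more (a factor of 0.974) gave medians of -0.37 for the members, -0.43 for the alpha genes and -0.25 for the 19S non-ATPases. Equal totals without mitochondrially encoded, hepatocyte and erythroid genes (a factor of 0.965) gave -0.36 for the members, -0.41 for the alpha genes, -0.42 for the constitutive beta genes, -0.52 for the immunoproteasome genes, -0.40 for the ATPases, -0.23 for the non-ATPases and -0.21 for the activators, and both scalings left 31 members at -0.3 or lower, against 18.4% and 17.6% of all genes, with 23.0% and 24.0% of all genes at 0.3 or higher. At a size rule of 0.5, 14 members were lower, against 10.1% of all genes. The mean difference between immunoproteasome and constitutive genes was -0.012 without Psmb8 and Psmb5, -0.30 without Psmb10 and Psmb7, and -0.18 as a ratio of sums. Psmd5 passed 0.3 in the higher direction with a pseudocount of 0.1 and under both scalings. With both copies summed, an alternative chosen after seeing the data, 34 of 47 members were at -0.3 or lower. No paired analysis was possible because each genotype has 1 library, and for the same reason no library could be left out. Of 105 values of the other lists and pairs, 32 moved and none changed sign. The floor alternatives cannot change the values of the pairs. The medians given above that moved by over 1.5 times were those of the cathepsins (0.07 with no floor), of interferon gamma signalling (0.10 and 0.11 under the scalings) and of p97 and the shuttle factors (-0.07 under equal totals). That of the NRF1 and NRF2 axis was 0.19 at a floor of 5 FPKM. Counting error at this depth was widest for Psmc3ip, Psmg4, Psmg1, Psma8 and Psmg2, from 0.17 to 0.11.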

Other observations

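The ubiquitin-like modifiers, a list written after the values were seen, lay near the class I loading genes, with a median log2 ratio of -0.22. All 7 measured genes were below 0, against 49.5% of all genes, and 3 (42.9%) were at -0.3 or lower, against 20.4%. Isg15, the interferon-inducible modifier, was at 88.9 in WT and 57.6 FPKM in KO (-0.62), Urm1 at 10.9 and 7.19 FPKM (-0.54), and Sumo2 at 158 and 117 FPKM (-0.42). Nedd8, which activates cullin ubiquitin ligases and is removed by the COP9 signalosome, was at 38.4 and 32.8 FPKM (-0.22). Ubd, the modifier FAT10 that targets proteins directly to the proteasome, was at 0.12 and 0.06 FPKM, below the floor.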
